A study of Mus musculus with 12 samples.

Results

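A set of 9 transcription regulators of the B lineage was followed in whole bone marrow of B6 mice: Ebf1, Pax5, Tcf3, Foxo1, Lef1, Spib, Pou2af1, Ikzf3 and Bach2. They were taken from a fixed list, by symbol, as 9 of the 21853 genes in the deposited table, and all 9 passed the filter on low values. This list and the gene lists used below were chosen with earlier results of these data known. Their counts beside the shares of all genes are therefore no independent test. Bulk RNA sequencing covered 12 libraries, 3 in each of 4 groups, with marrow taken 14 days after irradiation. Control mice were not irradiated. TBI stands for total body irradiation, given as gamma rays in a dose of 5 Gy and at a rate of 0.66 Gy/min, and the TBI mice were then gavaged with olive oil, the vehicle, in a volume of 100 µL. The TBI+DEIX mice were irradiated alike and took DEIX by mouth. The DEIX mice had DEIX without irradiation. The dose, 25 mg per kg body weight each day over 14 days, is stated once for mice given DEIX, counted from irradiation, and was taken for both groups. DEIX is deinoxanthin, the carotenoid of the series title. For control mice the sources name neither gavage nor olive oil, so the act of dosing and the treatments cannot be told apart in comparisons with control. Age and sex are not given in the sources used here, nor whether each library came from a separate mouse, so p-values measure the spread between these libraries.

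B cells arise in the marrow through a sequence of transcription factors. The E2A proteins encoded by Tcf3 and the forkhead factor Foxo1 help to switch on Ebf1 in lymphoid progenitors, and EBF1 then drives Pax5, whose product commits cells to the B lineage. LEF1 is a Wnt pathway factor of proliferating B cell progenitors. Ikzf3 encodes Aiolos, which helps pre-B cells to leave the cell cycle and mature. Spib encodes an ETS factor related to PU.1, Pou2af1 encodes the coactivator OBF-1 that works with Oct proteins at octamer sequences, and Bach2 encodes a repressor that holds back plasma cell differentiation. The list is therefore described in 2 sets, 5 early regulators (Ebf1, Pax5, Tcf3, Foxo1, Lef1) and 4 later regulators (Spib, Pou2af1, Ikzf3, Bach2), although Bach2 and Spib are also expressed in earlier precursors. Several members are not restricted to B cells: Tcf3 is broadly expressed, Lef1, Foxo1, Ikzf3 and Bach2 are also T cell genes, Spib is expressed by plasmacytoid dendritic cells and Pou2af1 by plasma cells.

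The sequences upstream of 4 members are shown because each holds a motif, uncommon among such windows, of a factor on the list or of its partner. Each run of 300 bases covers 250 bases before to 50 after a start site in RefSeq (GRCm38.p6), read 5′ to 3′ on the gene's strand. Windows were found for 8 of the 9 members, 12 windows in all. Capitals mark a motif match: in Spib and Pou2af1 the letters TGCAAAT, which are 7 of the 8 bases of the octamer ATTTGCAT on the opposite strand, and in Foxo1 the EBF1 palindrome (TCCC, any 2 bases, GGGA), here TCCCGAGGGA. In Bach2 they mark the ETS and IRF composite (GGAA, any 2 bases, GAAA) on the opposite strand, and this start site lies within the annotated gene. Both strands were searched.
Spib, chr7:44532022-44532321, minus strand: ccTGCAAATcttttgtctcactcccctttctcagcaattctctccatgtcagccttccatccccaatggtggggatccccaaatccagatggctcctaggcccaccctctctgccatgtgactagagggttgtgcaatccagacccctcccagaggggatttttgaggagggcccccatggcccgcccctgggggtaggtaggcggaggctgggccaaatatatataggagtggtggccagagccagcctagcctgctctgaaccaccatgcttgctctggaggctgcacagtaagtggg
Pou2af1, chr9:51213440-51213739, plus strand: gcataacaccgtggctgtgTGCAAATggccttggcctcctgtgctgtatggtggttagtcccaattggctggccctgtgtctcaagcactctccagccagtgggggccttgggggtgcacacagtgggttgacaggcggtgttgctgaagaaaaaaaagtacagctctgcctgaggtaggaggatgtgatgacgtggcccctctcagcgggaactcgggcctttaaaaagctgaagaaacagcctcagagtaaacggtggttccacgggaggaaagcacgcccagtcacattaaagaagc
Foxo1, chr3:52268087-52268386, plus strand: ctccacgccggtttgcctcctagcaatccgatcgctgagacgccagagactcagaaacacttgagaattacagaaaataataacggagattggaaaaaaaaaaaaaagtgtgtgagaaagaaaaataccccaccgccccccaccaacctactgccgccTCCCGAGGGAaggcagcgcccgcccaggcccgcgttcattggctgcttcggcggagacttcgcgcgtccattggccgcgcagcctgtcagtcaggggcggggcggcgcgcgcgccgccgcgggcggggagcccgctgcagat
Bach2, chr4:32417185-32417484, plus strand: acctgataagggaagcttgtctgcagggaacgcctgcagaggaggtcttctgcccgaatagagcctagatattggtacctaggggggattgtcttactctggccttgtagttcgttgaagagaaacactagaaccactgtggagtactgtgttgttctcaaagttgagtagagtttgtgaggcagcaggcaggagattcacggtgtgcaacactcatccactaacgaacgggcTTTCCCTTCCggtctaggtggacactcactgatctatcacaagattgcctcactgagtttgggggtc
The match began 248 bases before the start site in Spib and 231 before it in Pou2af1. Of all 32851 windows in the table, 4.02% held this sequence (ATTTGCA) on either strand, and 1.74% held the whole octamer, which no member's window did. The shorter form was added to the search after the sequences had been seen, and it lies within the octamer. The Foxo1 match began 92 bases before the start site, and 0.904% of all windows held the EBF1 palindrome. The E-box CAGGTG, a form bound by E2A proteins, was in 1 Lef1 window and in 20.2% of all windows. The composite in the Bach2 window began 17 bases before the start site, and 2.72% of all windows held it. The Ikaros family motif TGGGAA was in 4 of the 12 member windows (3 of Lef1 and 1 of Ebf1) and in 25.6% of all windows, but 2 of the Lef1 windows overlap and hold the same site. Motifs of FOXO (GTAAACA), LEF1 and TCF (CTTTGAT), and BACH2 and AP-1 (TGAGTCA) were in 0 of the 12, and in 3.65%, 3.73% and 5.2% of all windows. A match describes letters only.

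The libraries were not equally deep. Relative to control replicate 1, the FPKM worth of 1 read ran from 0.877 to 1.33 in the other control libraries, from 0.889 to 1.19 in TBI, from 1.51 to 2.35 in TBI+DEIX and from 1.11 to 1.68 in DEIX. A higher value means a shallower library, and the value of TBI+DEIX replicate 1 is uncertain because its best fit was only 1.07 times as good as the next. That library also lay apart from the other 11 on the first principal component, at 53.3 against 21.5 for the next. Calls of members that change without it, and correlations, are also given without it; counts over the other gene lists are from all 12 libraries. The B cell receptor chain gene Cd79a, which marks the lineage, was at 90.5 to 122 FPKM in control and was detected in all 12 libraries, with its lowest value, 1.62, in TBI+DEIX replicate 1. In bulk marrow, fewer B lineage cells and less RNA per cell cannot be told apart.

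FPKM divides the fragments of a gene by transcript length and library size, so levels of different genes can be set side by side. In control marrow Spib (83.2 ± 8.97 FPKM, SD, n = 3) and Pou2af1 (71.0 ± 8.11) were the most abundant members, and their libraries overlapped. Tcf3 followed at 49.1 ± 3.09 FPKM, apart from its neighbours. Pax5 (18.01 ± 1.68), Ebf1 (16.5 ± 2.40), Bach2 (14.6 ± 1.56) and Ikzf3 (14.2 ± 2.01) formed a group in which each overlapped the next. Foxo1 (8.29 ± 0.747) and Lef1 (5.55 ± 0.357) were lowest and overlapped no neighbour. In the other groups this order was different. Tcf3 had the highest mean in each of the 3 treated groups, with means of 24.7 ± 5.13 FPKM after DEIX, 40.4 ± 12.6 after TBI and 26.9 ± 5.48 after both. Pou2af1 came next in each, and its libraries overlapped those of Tcf3. In TBI and TBI+DEIX every member overlapped its neighbour in the order, and in DEIX Spib and Ikzf3 each stood above the next member, as Ebf1 did above Lef1.

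**Figure D1:**
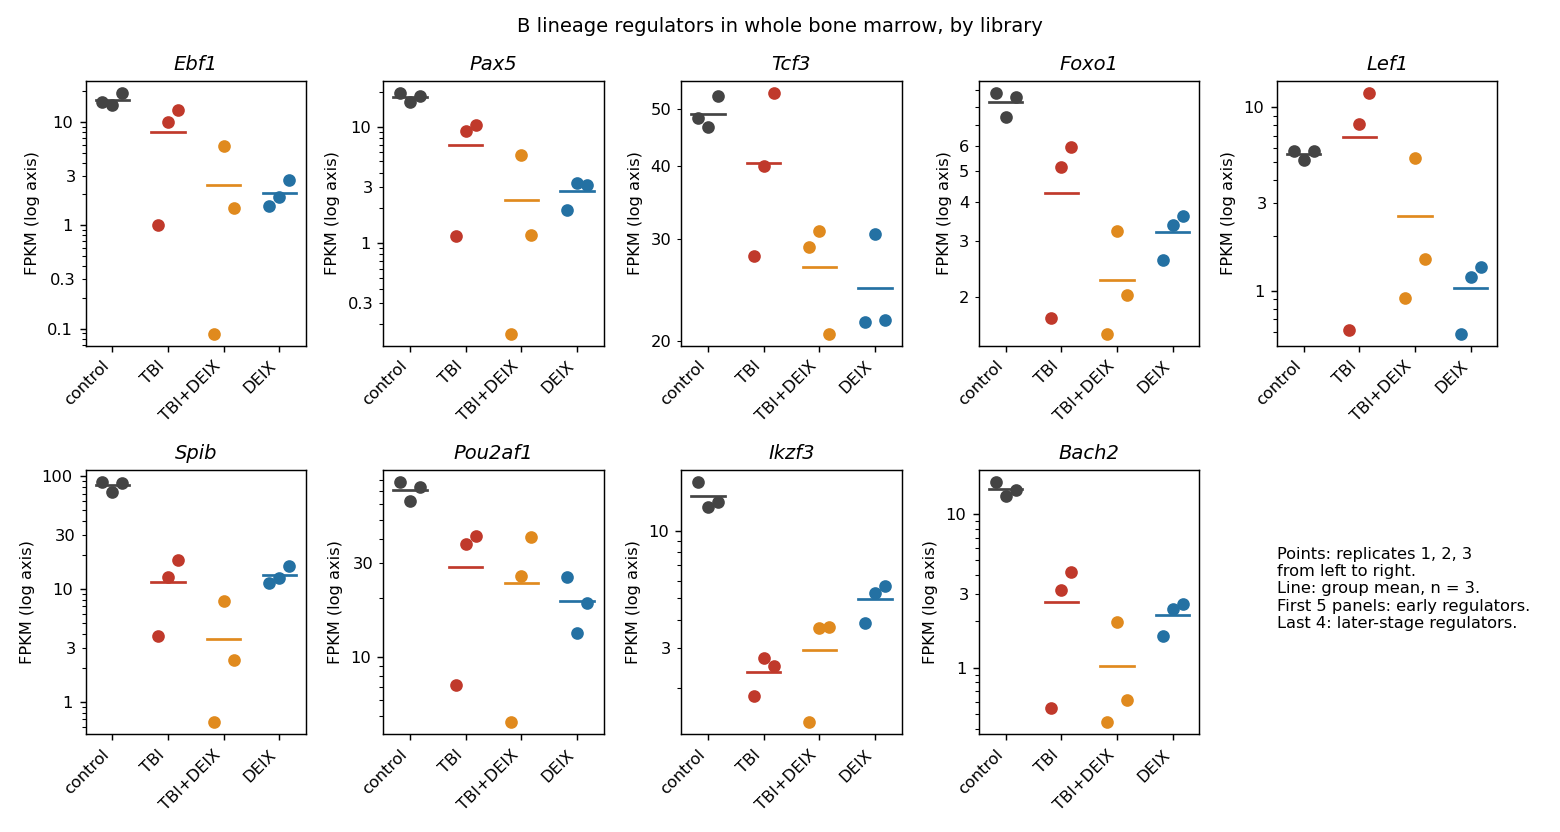
FPKM of each regulator (log axis) in the 12 libraries, by group, with points for replicates 1 to 3 from left to right and a line at the group mean. All 9 treated libraries lie below every control library for 7 of the 9 members, all but Tcf3 and Lef1, and Lef1 in TBI replicates 2 and 3 lies above all 3 control libraries.

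Spib (ENSMUSG00000008193.13, chromosome 7, 44525993 to 44532071) was at 89.3, 72.9 and 87.4 FPKM in control, 3.86, 12.7 and 17.9 in TBI, 0.655, 7.77 and 2.34 in TBI+DEIX, and 11.2, 12.5 and 16.1 in DEIX. All 9 treated libraries were below the control libraries, and TBI and DEIX overlapped. Bach2 (ENSMUSG00000040270.16, chromosome 4, 32238804 to 32586108) was at 16.3, 13.2 and 14.5 FPKM in control, 0.545, 3.23 and 4.22 in TBI, 0.440, 2.00 and 0.616 in TBI+DEIX, and 1.61, 2.40 and 2.59 in DEIX. It too was below control in all 9 treated libraries. Replicate 1 was the lowest library of each treated group for Bach2, and likewise for Spib, Ikzf3, Ebf1, Pax5, Foxo1 and Lef1. This did not hold for Tcf3 in TBI+DEIX or for Pou2af1 in DEIX.

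Ikzf3 (ENSMUSG00000018168.8, chromosome 11, 98464902 to 98546031) was at 16.5, 12.7 and 13.4 FPKM in control, 1.83, 2.72 and 2.49 in TBI, 1.40, 3.68 and 3.74 in TBI+DEIX, and 3.90, 5.29 and 5.65 in DEIX. Here the DEIX libraries were all above the TBI and TBI+DEIX libraries and all below control. Pou2af1 (ENSMUSG00000032053.8, chromosome 9, 51213708 to 51240080) was at 77.9, 62.1 and 72.9 FPKM in control, 7.13, 37.5 and 41.4 in TBI, 4.62, 25.7 and 40.6 in TBI+DEIX, and 25.6, 13.1 and 18.7 in DEIX. The 3 treated groups overlapped one another and none reached control.

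Among the early regulators, Ebf1 (ENSMUSG00000057098.14, chromosome 11, 44617317 to 45008091) was at 15.8, 14.5 and 19.2 FPKM in control, 1.00, 9.998 and 13.3 in TBI, 0.0894, 5.90 and 1.46 in TBI+DEIX, and 1.54, 1.89 and 2.77 in DEIX. Pax5 (ENSMUSG00000014030.15, chromosome 4, 44524757 to 44710487) ran closely with it, at 19.4, 16.1 and 18.5 FPKM in control, 1.14, 9.24 and 10.4 in TBI, 0.165, 5.66 and 1.17 in TBI+DEIX, and 1.93, 3.25 and 3.12 in DEIX. TBI replicate 1 and TBI+DEIX replicate 1 were far below the other libraries of their groups for both genes, while the 3 DEIX libraries lay close together. The ratio of Ebf1 to Pax5 FPKM stayed between 0.542 (TBI+DEIX replicate 1; 0.583 without it) and 1.28 over the 12 libraries, although Ebf1 itself ran from 0.0894 to 19.2 FPKM.

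Foxo1 (ENSMUSG00000044167.6, chromosome 3, 52268336 to 52353221) was at 8.82, 7.43 and 8.60 FPKM in control, 1.72, 5.14 and 5.97 in TBI, 1.53, 3.24 and 2.03 in TBI+DEIX, and 2.61, 3.39 and 3.61 in DEIX, with no treated library reaching control. Tcf3 (ENSMUSG00000020167.14, chromosome 10, 80409514 to 80433647) was at 48.2, 46.6 and 52.6 FPKM in control, 28.0, 40.0 and 53.3 in TBI, 29.1, 30.9 and 20.6 in TBI+DEIX, and 21.6, 30.6 and 21.8 in DEIX. Only TBI overlapped control for Tcf3.

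Lef1 (ENSMUSG00000027985.14, chromosome 3, 131110471 to 131224356) was at 5.74, 5.14 and 5.78 FPKM in control, 0.611, 8.08 and 11.9 in TBI, 0.914, 5.31 and 1.48 in TBI+DEIX, and 0.585, 1.20 and 1.35 in DEIX. TBI replicates 2 and 3 were above every control library, at 146% and 215% of the control mean, and TBI replicate 1 was at 11.01%. In the same 2 libraries Ikzf3 was at 19.1% and 17.5% of its control mean. The ratio of Lef1 to Ikzf3 FPKM was therefore 2.97 and 4.79 there, against 0.347 to 0.430 in control, 0.335 in TBI replicate 1, 0.652, 1.44 and 0.396 in TBI+DEIX and at most 0.238 in DEIX.

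The first comparison sets irradiated, vehicle-treated marrow (TBI) against control. All 9 estimates were below 0. Spib, Ikzf3 and Bach2, 3 of the 4 later regulators, were called lower, while Pou2af1 and the 5 early regulators were not called. On the log2(FPKM + 1) scale, which understates changes of low genes, the change was -2.96 for Spib (SE 0.56, adjusted p 0.0151), -2.27 for Bach2 (SE 0.40, adjusted p 0.0104) and -2.19 for Ikzf3 (SE 0.24, adjusted p 0.00094). Adjusted p-values are from limma with Benjamini-Hochberg adjustment over all 10994 genes tested, and a gene is called under 0.05. Called lower were 3 of 9 members and 3.1% of all genes tested, and called higher were 0 members and 0.891% of all genes. The 9 members had a median log2 change of -1.59, beside 0.05 over all genes tested. Pax5 (-1.59, adjusted p 0.231), Pou2af1 (-1.60, adjusted p 0.273) and Ebf1 (-1.36, adjusted p 0.354) were not called, and their SE, which is shared by the 4 groups, was 0.66, 0.72 and 0.72. Foxo1 was at -0.92 (adjusted p 0.137), Tcf3 at -0.32 (0.492) and Lef1 at -0.19 (0.914). The groups did not overlap for 7 members, all lower in TBI, against 16.3% of all genes. Ikzf3 kept its call under all 23 alternatives. Spib lost its call when control replicate 1, 2 or 3 or TBI replicate 1 was left out (-2.90, -3.05, -2.92 and -2.38, adjusted p up to 0.0784). In these fits 117, 141, 117 and 208 of all genes were called, against 439 as reported. Bach2 lost its call without control replicate 1 or 3 (-2.19 and -2.27, adjusted p up to 0.059). With a pseudocount of 0.01 both members lost it.

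**Figure D2:**
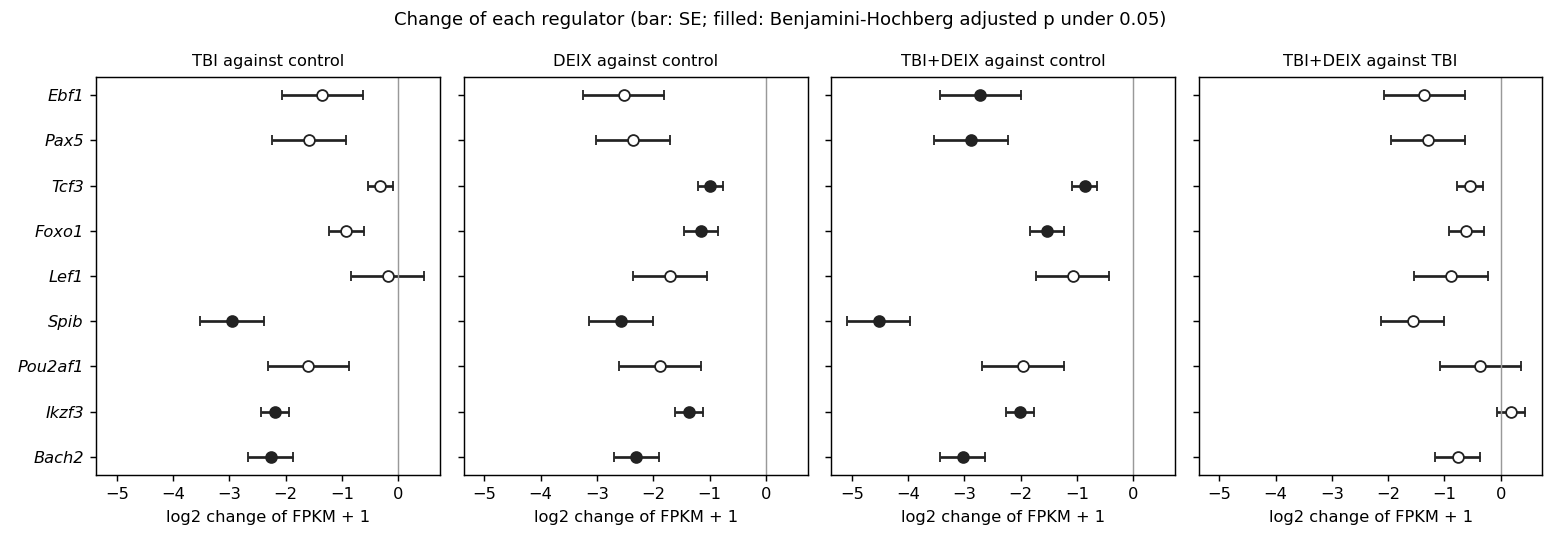
Log2 change of FPKM + 1 for each regulator in 4 comparisons, with bars for the SE from limma and filled points for an adjusted p under 0.05. Spib has the lowest estimate in every panel, and no point is filled for TBI+DEIX against TBI.

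In mice that were not irradiated, DEIX went with lower levels of the whole set. All 9 members were lower in every DEIX library than in every control library, against 17.2% of all genes tested that did not overlap in this direction. Called lower were 5 of 9, beside 2.72% of all genes (4.52% were called higher): Spib (-2.57, SE 0.56, adjusted p 0.0245), Bach2 (-2.30, SE 0.40, adjusted p 0.0096), Ikzf3 (-1.36, SE 0.24, adjusted p 0.0108), Foxo1 (-1.15, SE 0.31, adjusted p 0.0476) and Tcf3 (-0.98, SE 0.22, adjusted p 0.0288). The median change was -1.88 for the members and 0.02 for all genes. Ebf1 (-2.52, adjusted p 0.0589) and Pax5 (-2.35, adjusted p 0.0554) missed the threshold with larger estimates than Foxo1 or Tcf3, as did Lef1 (-1.70, adjusted p 0.137) and Pou2af1 (-1.88, adjusted p 0.137). The spread in this model is shared by the 4 groups. With only the control and DEIX libraries in the fit all 9 members were called, and 8 were when TBI replicate 1 or TBI+DEIX replicate 1, libraries of neither group, was left out. More of all genes were called there too: 2047 of 10807 with only these groups, 899 of 10981 without TBI replicate 1 and 2397 of 10961 without TBI+DEIX replicate 1, against 796 of 10994 as reported. Without control replicate 1, control replicate 3 or DEIX replicate 1 none was called (adjusted p for the 5 up to 0.168, for Foxo1), and without control replicate 2 or DEIX replicate 3 there were 2. In those 5 fits 121 to 215 of all genes were called. On the TPM scale (each library rescaled to the same sum) 3 members were called, and 256 of 313 called genes were lower, against 299 of 796 here.

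In the fit as reported, TBI+DEIX against control gave the most calls. Lower were 7 of 9 members, where 13.1% of all genes were called lower and 16.9% higher: Spib, Bach2, Ikzf3, Pax5, Ebf1, Foxo1 and Tcf3. Spib fell by 4.52 (SE 0.56, adjusted p 0.00041), the largest fall on the log2(FPKM + 1) scale among the 10994 genes tested, from 83.2 ± 8.97 to 3.59 ± 3.72 FPKM (SD, n = 3). In FPKM it was at 4.31% of control, and the low genes Fcer2a and Cr2 were lower still, at 0.942% and 1.82%. The change was -3.03 for Bach2 (adjusted p 0.000512), -2.89 for Pax5 (adjusted p 0.00796), -2.72 for Ebf1 (adjusted p 0.0162), -2.01 for Ikzf3 (adjusted p 0.000362), -1.54 for Foxo1 (adjusted p 0.00412) and -0.87 for Tcf3 (adjusted p 0.0145). Pou2af1 (-1.96, adjusted p 0.0619) and Lef1 (-1.08, adjusted p 0.237) were not called. The members' median was -2.01, beside 0.02 over all genes, and 8 of 9 did not overlap control, against 21.1% of all genes. Without TBI+DEIX replicate 1 there were again 7 members called, with Spib at -3.95, while 1684 of 10961 genes were called lower, against 1444 of 10994 as reported. Ebf1 lost its call without control replicate 3 and Tcf3 without control replicate 3 or TBI+DEIX replicate 3. On the TPM scale 1362 of 1941 called genes were lower, against 1444 of 3299 here. The 3 comparisons with control share the control libraries.

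Within irradiated mice, DEIX was set against vehicle (TBI+DEIX against TBI). None of the 9 members was called, with 2 (Spib and Tcf3) at an unadjusted p under 0.05, which 27.2% of all genes had, and the groups overlapped for all 9. Of all genes 12.7% were lower and 14.5% higher with no overlap. Among all genes tested 8.1% were called, 3.41% lower and 4.69% higher. Spib was at -1.57 (SE 0.56, adjusted p 0.103), Ebf1 at -1.36 (SE 0.72, adjusted p 0.252), Pax5 at -1.30 (SE 0.66, adjusted p 0.233) and Lef1 at -0.89 (SE 0.65, adjusted p 0.415). Bach2, Foxo1, Tcf3 and Pou2af1 were at -0.76, -0.61, -0.55 and -0.36, and Ikzf3 at 0.18. A miss here does not show equal levels, since the libraries of both groups were widely spread. Single libraries decided the outcome: without TBI replicate 1 there were 7 members called lower (Ebf1, Pax5, Tcf3, Foxo1, Lef1, Spib and Bach2, with Spib at -2.14 and Ebf1 at -2.24), beside 331 of 10981 genes called lower. Without TBI+DEIX replicate 1, Ikzf3 alone was called, higher by 0.50 (adjusted p 0.0444), and without TBI+DEIX replicate 2, Spib alone (-2.199, adjusted p 0.0282). In these fits 2828 of 10961 and 949 of 10967 genes were called. Over all genes the count went from 891 to 0 with only these 6 libraries in the fit, where no member was called either. On the TPM scale 87 of 136 called genes were lower, against 375 of 891 here.

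Irradiated and unirradiated mice that both took DEIX were also set against each other. In TBI+DEIX against DEIX no member was called (2 at an unadjusted p under 0.05, beside 16.2% of all genes), and 2.57% of all genes were, 1.76% lower and 0.81% higher. Spib (-1.95, adjusted p 0.103) and Ikzf3 (-0.65, adjusted p 0.216) were lower in every TBI+DEIX library than in every DEIX library, against 8.96% of all genes, and the other 7 overlapped. Without TBI+DEIX replicate 2 Spib was called (-2.59, adjusted p 0.0295). The estimates of Ebf1, Pax5 and Pou2af1 turned from -0.19, -0.54 and -0.08 to 0.45, 0.0337 and 0.77 without TBI+DEIX replicate 1, none called. TBI against DEIX, a comparison added after the values had been seen, also called no member (3 at an unadjusted p under 0.05, beside 16.8% of all genes), and 0.418% of all genes were called, 0.3% lower and 0.118% higher. Lef1 was higher in TBI by 1.51 (SE 0.65, adjusted p 0.276) and Ikzf3 lower by 0.83 (SE 0.24, adjusted p 0.14), and of the 9 members only Ikzf3 did not overlap, against 14.8% of all genes lower in this way. Lef1 was called without TBI replicate 1 (2.43, adjusted p 0.022) and Ikzf3 without TBI+DEIX replicate 1 (adjusted p 0.0131). In these fits 288 of 10981 and 704 of 10961 genes were called, against 46 of 10994 as reported.

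The interaction is the DEIX difference in irradiated mice minus that in unirradiated mice. DEIX is set against olive oil in irradiated mice, but in unirradiated mice against control, for which no gavage is named. The interaction therefore cannot be told apart from an effect of dosing. All 9 estimates were above 0, as were 5111 of all 10994 genes, and their median was 1.06, beside -0.02 over all genes. In the lists described below, 22 of 23 receptor and recombination genes (median 1.12) and all 11 T cell markers tested (median 0.75) were also above 0. None of the 9 members was called (2 had an unadjusted p under 0.05, beside 7.5% of all genes, and 0.2% of all genes were called). The largest were Ikzf3 (1.54, SE 0.35, adjusted p 0.137), Bach2 (1.54, SE 0.57, adjusted p 0.523) and Pou2af1 (1.52, SE 1.02, adjusted p 0.876). For Ikzf3 the DEIX difference was -1.36 in unirradiated and 0.18 in irradiated mice. Without TBI+DEIX replicate 1 its interaction was 1.86 with an adjusted p of 0.00152, in a fit that called 330 of 10961 genes, against 22 of 10994 as reported.

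The receptor and recombination genes of the B lineage, from a list of 23 fixed genes, give the levels beside which the regulators can be read. In TBI against control 8 of 23 were called lower and 0 higher, in DEIX against control 7 lower and 1 higher, in TBI+DEIX against control 15 lower and 1 higher, and in TBI+DEIX against TBI 0 lower and 1 higher. Of all genes 3.1%, 2.72%, 13.1% and 3.41% were called lower and 0.891%, 4.52%, 16.9% and 4.69% higher in these comparisons. Their median changes were -1.55, -2.10, -2.34 and -0.92. The largest called changes were in Ms4a1, Fcrla and Cd72 in TBI (-3.92, -3.28 and -3.16), in Rag1, Cd72 and Fcrla in DEIX (-3.29, -2.64 and -2.36) and in Cd72, Vpreb3 and Fcrla in TBI+DEIX (-3.77, -3.66 and -3.55). Vpreb1 and Igll1 encode the surrogate light chain of precursor cells and were picked here after their values were seen. They were high and low in the same treated libraries as Lef1: in TBI replicates 2 and 3 Vpreb1 was at 73.7 and 85.0 FPKM, above its 32.0 to 37.5 in control, and in DEIX at 0.984 to 3.26. Other precursor genes of the list did not all go this way. In TBI replicates 2 and 3 Vpreb2 and Dntt were also above their control means. Vpreb3 (47.5% and 44.0% of its control mean), Il7r (42.3% and 50.6%) and Rag1 (53.2% and 88.0%) were below theirs. Rag2 was at 89.1% in replicate 2 and 142% in replicate 3. The Fc epsilon receptor gene Fcer2a was at 3.90 to 6.22 FPKM in control, no more than 0.0814 in any irradiated library and 1.47 to 3.20 in DEIX, and it was the 1 gene of this list called in TBI against DEIX (-1.72, adjusted p 0.0108). The ratio of Pax5 to Cd79a FPKM was 0.151 to 0.178 in control, 0.171 to 0.224 in TBI, 0.102, 0.161 and 0.0477 in TBI+DEIX and 0.0980, 0.1499 and 0.109 in DEIX, so that 1 TBI+DEIX library lay within the control range and the DEIX libraries below it.

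**Figure D3:**
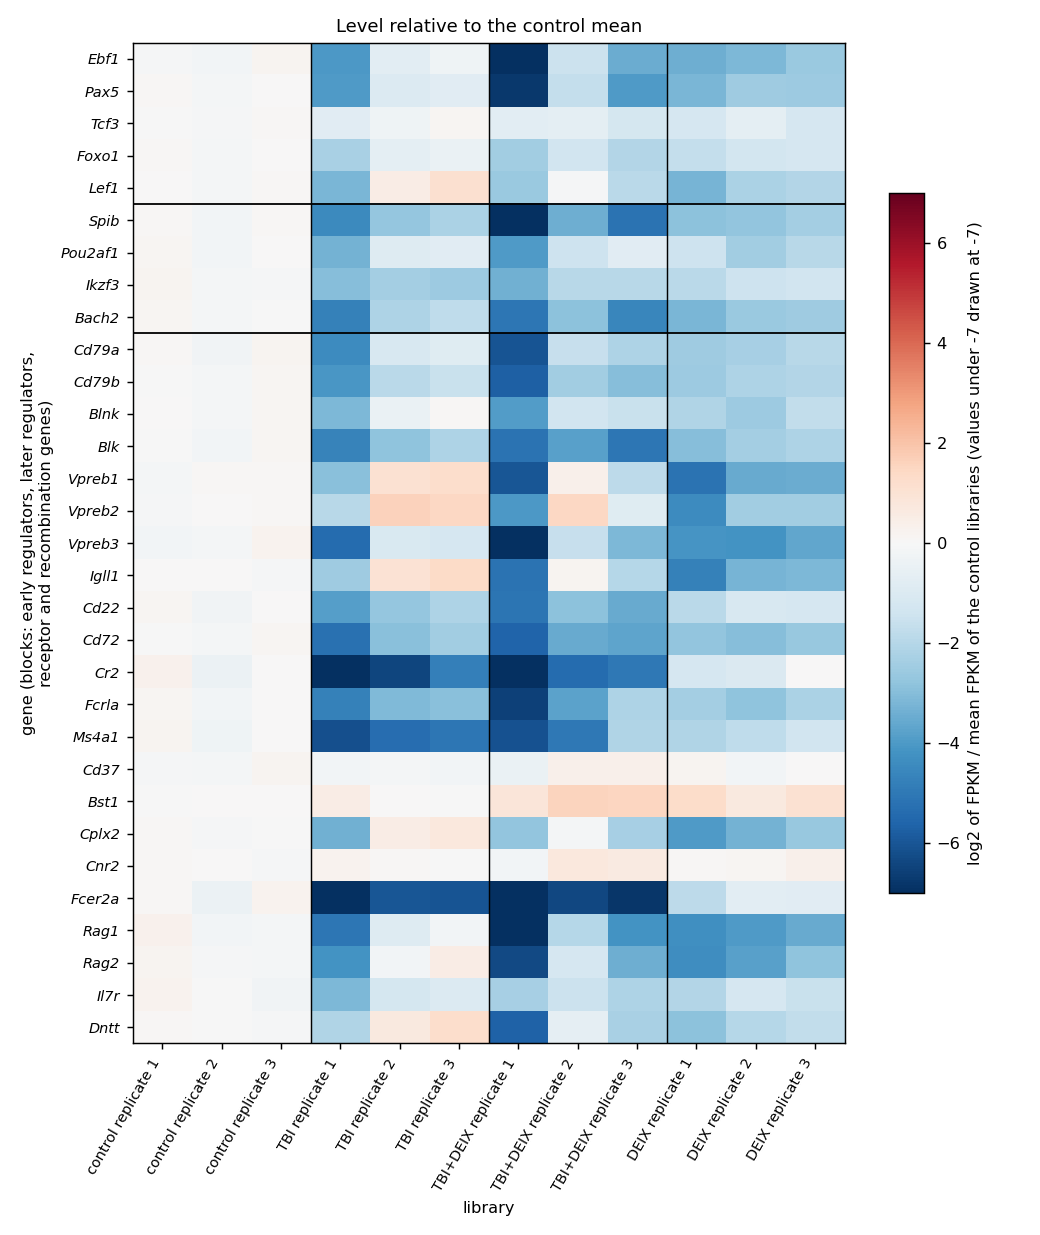
Colour gives log2 of FPKM over the mean FPKM of the control libraries, for the 5 early regulators, the 4 later regulators and 22 of the receptor and recombination genes (rows) in the 12 libraries (columns), with values under -7 drawn at -7. Lef1, Vpreb1 and Igll1 are above 0 in TBI replicates 2 and 3, where Vpreb3, Il7r and Rag1 are below 0. Fcer2a and Cr2 are far below 0 in all irradiated libraries and nearer to 0 in DEIX.

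Other regulators of the B lineage came from a fixed list of 24 genes, of which 23 were tested. In TBI against control 6 were called lower and 0 higher, beside 3.1% and 0.891% of all genes. The largest called falls were in Pou2f2, which encodes the Oct-2 partner of the Pou2af1 product (-0.92, adjusted p 0.0143), Mef2c (-0.78, adjusted p 0.00784) and the progenitor factor Myb (-0.77, adjusted p 0.00643). In DEIX against control 4 were lower and 0 higher (2.72% and 4.52% of all genes), led by Myb (-0.77, adjusted p 0.00753), Mef2c (-0.56) and Tcf4 (-0.54). In TBI+DEIX against control 10 were lower and 5 higher (13.1% and 16.9% of all genes), with Irf8 (-1.92, adjusted p 0.000316), Id3 (-1.75, adjusted p 0.0416) and Irf4 (-1.64, adjusted p 0.0433) the largest. The 3 most abundant genes of the list are shared with myeloid cells and were called higher there: Spi1, which encodes PU.1, rose by 0.71 in TBI+DEIX against control (adjusted p 0.0109), Id2, an inhibitor of E proteins such as E2A, rose by 1.26 (adjusted p 0.0131) and Ikzf1, which encodes Ikaros, rose by 0.43 (adjusted p 0.0141). In TBI+DEIX against TBI 3 were lower and 2 higher (3.41% and 4.69% of all genes), among them Irf8 (-1.03, adjusted p 0.024), Klf2 (0.96, adjusted p 0.0108) and Spi1 (0.68, adjusted p 0.0386). In TBI+DEIX against DEIX 5 were lower and 0 higher (1.76% and 0.81% of all genes), with Irf8 (-1.62, adjusted p 0.00639), Pou2f2 (-1.03) and Tcf4 (-0.81) the largest.

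The members also varied together, as described by Pearson correlations of log2(FPKM + 1) over the 12 libraries, which share the contrast with control. Ebf1 and Pax5 were closest, at 0.987, and at 0.981 over the 9 libraries without control. Foxo1 and Bach2 gave 0.973 and 0.978. Ikzf3 was the member least tied to the early regulators once control was left out. It was at 0.179 with Ebf1, 0.287 with Pax5, 0.327 with Foxo1, -0.09 with Lef1 and -0.39 with Tcf3. With TBI+DEIX replicate 1 left out as well (8 libraries), Ebf1 and Lef1 were the closest pair, at 0.979 (0.897 over all 12). Ebf1 and Pax5 then gave 0.973, and Foxo1 and Bach2 0.971. Ikzf3 was then at -0.24 with Ebf1, -0.12 with Pax5, 0.03 with Foxo1, -0.32 with Lef1 and -0.50 with Tcf3. Among the genes most like Ebf1 were Akap12, Rag1, Slamf6 and Vpreb3 (r from 0.975 to 0.993), and among those most like Pax5 were Atp1b1, Chst3, Akap12 and Bcl7a (0.978 to 0.988). Lef1 was most like Cplx2, Smtnl2, Sit1, Hes1 and Tspan6 (0.966 to 0.989), Ikzf3 like Cd2, Tnfrsf13c, Il4i1, Zbtb4 and Ralgps2 (0.969 to 0.979), Spib like Vav2, Arl5c, Snn, Ahdc1 and Havcr1 (0.974 to 0.989), and Bach2 like Fam129c, Aff3, Cxxc5, Traf3ip2 and Emid1 (0.984 to 0.993). For Foxo1 the closest were Chst3, Ablim1, Cxxc5, Aff3 and Snn (0.981 to 0.996), and for Pou2af1 they were Tubb2b, Cd79a, Blnk, Stambpl1 and Vpreb3 (0.935 to 0.955). Tcf3 was nearest to Wdr6, Hmgn1, Xrcc6, Ap1ar and Fam53b (0.945 to 0.974). These genes had r from 0.901 to 0.995 with their members when TBI+DEIX replicate 1 was left out. For Spib and Ikzf3 only 1 of the 5 was then still among the 5 most alike, and for the other members 3 or 4 were.

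Markers of other cell types that express some members were also measured. The summed FPKM of 10 plasmacytoid dendritic cell markers was 362 to 420 in control and 105 to 121 in TBI. It was 37.2 to 158 in TBI+DEIX and 140 to 157 in DEIX, with no marker at 0 in any library. Several of the 10, such as Ly6d, Bst2, Irf7 and Runx2, are not particular to those cells, and Ly6d, Bst2 and Irf7 were the most abundant. Siglech, a defining marker, was at 26.6 ± 1.37 FPKM in control (SD, n = 3). The treated means were 16.3 ± 2.36 (DEIX), 8.98 ± 1.33 (TBI) and 3.54 ± 2.08 (TBI+DEIX). In TBI+DEIX replicate 3 the sum was the highest of its group, at 158, while Siglech was at its lowest, 2.26 FPKM. Of these 10, limma called 4 lower in TBI, 0 in DEIX and 8 in TBI+DEIX against control, with 9, 8 and 9 at an unadjusted p under 0.05. Of all genes 3.1%, 2.72% and 13.1% were called lower, and 1988, 2718 and 4577 of 10994 had such a p. Spib was lower than control in the same libraries, and the part of these cells in its fall was not tested. The sum of 14 T cell markers (11 tested) was 40.4 to 43.9 in control, 16.5 to 24.4 in TBI, 14.8 to 36.0 in TBI+DEIX and 23.0 to 31.5 in DEIX. Called lower by limma were 3, 0 and 2 of the 11 in TBI, DEIX and TBI+DEIX against control, with 9, 4 and 5 at an unadjusted p under 0.05, so that in TBI+DEIX the shares were near those of all genes. The part of T cells in the changes of Lef1, Foxo1, Ikzf3 and Bach2 was not tested. Of 8 plasma cell markers, 0 were called by limma in any of these comparisons, with 0 in TBI, 1 in DEIX and 1 in TBI+DEIX against control at an unadjusted p under 0.05. Their sum was 321 to 482 in control and 365 to 477 in TBI, and it reached 1545 in TBI+DEIX replicate 3 and 1143 and 1077 in DEIX replicates 1 and 3. Pou2af1 was the highest of its group in TBI+DEIX replicate 3 and DEIX replicate 1, and its ratio to Pax5 was 34.7 and 13.3 there, against 3.85 to 4.02 in control. In DEIX replicate 3, whose plasma cell sum was nearly as high, Pou2af1 was at 18.7 FPKM and the ratio at 5.99. In TBI+DEIX replicate 1 the ratio was 28.0 while the plasma cell sum was the lowest, at 243, and Tnfrsf17 was at 0. The part of plasma cells in the level of Pou2af1 was not tested.

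Myeloid and erythroid markers also varied between libraries. The sum of 10 erythroid markers was 3311 to 5253 FPKM in control, 1804 to 8220 in TBI (highest in replicate 1), 241 to 1594 in TBI+DEIX and 1370 to 8145 in DEIX (highest in replicate 2). The neutrophil sum (12 genes) was 19300 to 27513 in control, 20233 to 26036 in TBI, 14820 to 40815 in TBI+DEIX and 22249 to 28941 in DEIX. The monocyte sum (9 genes) was 2092 to 2120 in control, 1424 to 2271 in TBI, 849 to 2743 in TBI+DEIX and 2512 to 2901 in DEIX. Of 10 erythroid markers, 6 were called lower in TBI+DEIX against control and 0 higher, while 1 of 12 neutrophil markers was lower and 4 higher, and 4 of 9 monocyte markers were lower and 1 higher, beside 13.1% and 16.9% of all genes. In DEIX against control 3 monocyte markers were called higher, beside 4.52% of all genes, and in TBI against control 1, beside 0.891%. No other marker of these lists was called in either comparison. FPKM is a share of a library, so these shifts lower or raise the members' share as well, and their part in the changes was not tested.

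**Figure D4:**
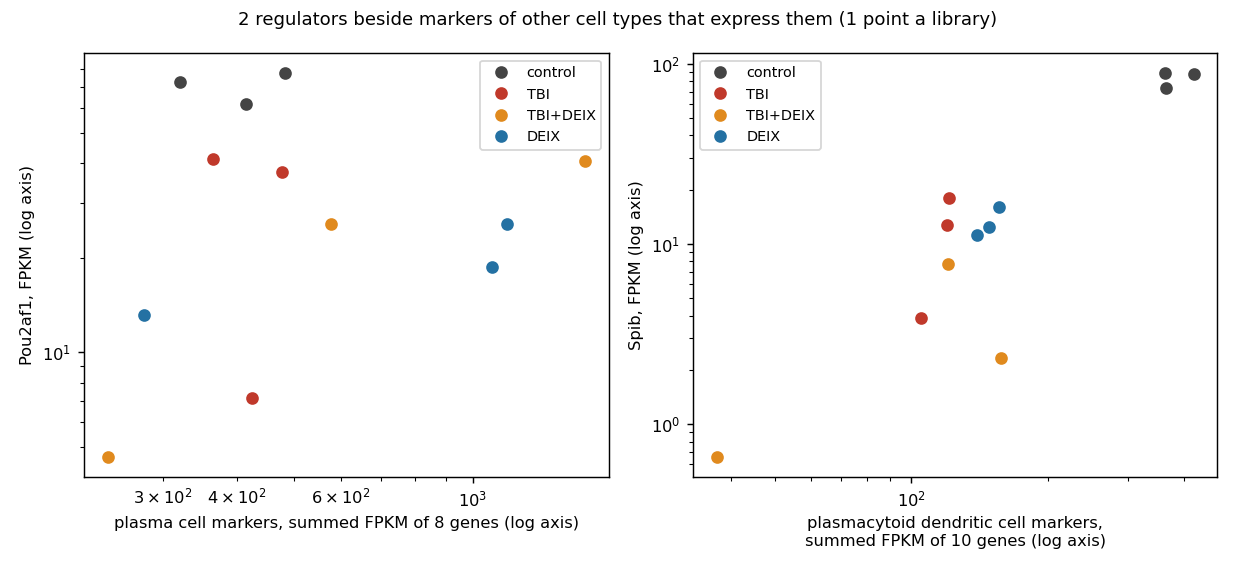
Left, Pou2af1 FPKM against the summed FPKM of 8 plasma cell markers, and right, Spib FPKM against that of 10 plasmacytoid dendritic cell markers, both on log axes with 1 point a library. The 3 control libraries stand apart at the upper right for Spib, and the highest plasma cell sum, 1545 in TBI+DEIX replicate 3, goes with a Pou2af1 level of 40.6.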

How the data were processed

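RNA of whole bone marrow was sequenced in 12 libraries, 3 in each of 4 groups, grouped by the titles in the labels. Per the labels' protocols, a directional MGI kit was used on total RNA. The submitters' processing notes name STAR 2.6, Cufflinks 2.2.1 and the mm10 build; the annotation and strand setting are not given in the sources used here. The deposited table holds FPKM computed by the authors, 1 value per gene and library, with no counts, so total depth is unknown. Relative depth was read from low values, as the most frequent ratio to control replicate 1. All 21853 identifiers matched GENCODE vM21 (GRCm38, the same assembly as mm10), which gave symbols and coordinates; promoter sequences and coordinates are RefSeq's on GRCm38.p6.

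Values were tested as log2(FPKM + 1) for the 10994 genes with at least 1 FPKM in at least 3 libraries. limma 3.58.1 in R 4.3.3 (lmFit, eBayes with trend) fitted 4 group means over all 12 libraries, with 8 residual degrees of freedom, and p-values were Benjamini-Hochberg adjusted over all genes tested. Deposited FPKM were moved to the log2 scale only here. The script was tested on simulated data. The within-group SD of log2 values was 0.140 in control and 0.418 in TBI+DEIX.

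The members and gene lists were chosen with earlier results of these data known. The rule for named genes took all 9 members, from each list its 3 most abundant tested genes, for 2 lists the 3 largest called changes per comparison, and the 5 genes most like each member; 1 gene is not reported here. The text names only some of these, and gives most marker lists by sums and counts. Cd79a, Vpreb1, Igll1, Fcer2a, Cr2, Siglech and Tnfrsf17 were chosen as examples after their values were seen. Alternatives were 2 pseudocounts, 2 filters, 3 scalings, array weights, a robust spread, the replicate number as a block, fits on the groups compared and leaving out each library.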

Additional observations from a re-analysis of the deposited data

How the results depend on the processing

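Of 1426 member changes recomputed under the alternatives, 1306 kept their direction and side of the threshold, 44 lost and 55 gained a call in the same direction, and 21 turned. Leaving out 1 library gave from 1 to 3 called members in TBI against control (3 as reported), 0 to 8 in DEIX against control (5), 5 to 8 in TBI+DEIX against control (7), 0 to 7 in TBI+DEIX against TBI (0), and 0 to 1 in TBI+DEIX against DEIX, the interaction and TBI against DEIX (0 each). A pseudocount of 0.01 gave 1 in TBI against control and 3 in DEIX against control, where a pseudocount of 0.1, the TPM scale and the TPM scale without S100a8, S100a9 and Ngp (added after seeing the data, since these genes are listed at 0 in some libraries) also gave 3 and the groups compared alone gave 9. Array weights, whose estimation stopped before it converged, gave 9, 9, 7, 2 and 5 in TBI against control, DEIX against control, TBI+DEIX against TBI, the interaction and TBI against DEIX. Over all genes 439 were called in TBI against control and 796 in DEIX against control as reported; a pseudocount of 0.01 gave 293 and 641, and in DEIX against control a pseudocount of 0.1 gave 669, the 2 TPM scales 313 and 455 and the groups compared alone 2047. The cause was not tested.

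Direction turned in these cases, given for left-out libraries with the range over all of them. In TBI against control, Lef1 was at 0.49 with array weights and from -0.77 to 0.73, the latter without TBI replicate 1. In the interaction Lef1 ran from -0.10 (without TBI replicate 1) to 1.40. In TBI+DEIX against TBI, Pou2af1 ran from -1.13 to 0.49, above 0 without TBI replicate 3 (0.0576) or TBI+DEIX replicate 1 (0.49). In TBI+DEIX against DEIX array weights gave 0.55 for Ebf1, 0.23 for Pax5 and 0.55 for Pou2af1. Without TBI+DEIX replicate 1 they were at 0.45, 0.0337 and 0.77, the top of ranges from -0.89, -1.22 and -0.67; Pou2af1 was at 0.14 without DEIX replicate 1. In TBI against DEIX, Bach2 was at -0.10 and -0.14 with pseudocounts of 0.1 and 0.01 and from -0.31 to 0.57 (below 0 without TBI replicate 2 or 3 or DEIX replicate 1), Spib from -0.79 to 0.19 (above 0 without TBI replicate 1), Foxo1 from -0.0322 to 0.65 (below 0 without TBI replicate 3) and Pou2af1 from -0.14 to 1.05 (below 0 without TBI replicate 2 or 3).

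With the replicate block 3, 7 and 7 members were called in TBI, DEIX and TBI+DEIX against control and 0 in the other comparisons. Of all genes 378, 640 and 3000 were called there, against 439, 796 and 3299 as reported. Same-numbered libraries correlated above 0.1 over all genes tested in 3 of 18 pairs (from -0.45 to 0.24). Such correlations cannot exclude pairing, and whether the numbers pair the samples is not known. Over all genes, calls ran from 117 to 1398 in TBI against control, 121 to 2397 in DEIX against control, 1941 to 4224 in TBI+DEIX against control, 0 to 2828 in TBI+DEIX against TBI, 1 to 915 in TBI+DEIX against DEIX, 0 to 330 in the interaction and 1 to 704 in TBI against DEIX, array weights aside (7017, 5249, 6866, 5532, 1222, 1148 and 3659). The TPM scale moved the median of all genes to -0.13 in DEIX against control, -0.12 in TBI+DEIX against TBI and 0.14 in TBI against DEIX. Lef1 and Foxo1 have a mean under 5 FPKM and have no value under that filter. Low values rest on the fewest reads in TBI+DEIX replicates 1 and 3.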
